A study of Mus musculus with 18 samples.

Results

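The genes described are 8 X-linked protein-coding genes known to be expressed from both X chromosomes of female mouse cells: Kdm5c, Kdm6a, Ddx3x, Eif2s3x, Usp9x, Pbdc1, Syap1 and 1810030O07Rik. They were chosen by symbol from knowledge of mouse escape genes, with earlier results of these data known. All 8 were found among the 46078 gene identifiers of each deposited table, of which 2601 lay on the X chromosome. All 8 passed the filter on low values in every tissue, and their recovered reads ran from 155 for Eif2s3x to 14167 for Usp9x in single libraries. The tables hold total RNA per gene with no separation of alleles, so they show the amount of each transcript and not the chromosome it came from.

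All animals and cells were female. Controls carried a heterozygous deletion of Xist and so kept 1 intact copy, and mutants carried a homozygous deletion. Primary cultures of tail-tip fibroblasts are represented by 3 libraries of each genotype, and the spleen, liver and brain of postnatal day 1 pups by 2 of each genotype, making 18 libraries. There was no group without an Xist deletion. The strain, the deleted part of Xist, any Cre driver, the age of the mice that gave the fibroblasts and whether organs with the same number came from 1 pup are not stated in the sources used here.

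In female mammals each cell silences most genes of 1 X chromosome, and the long noncoding RNA Xist starts this silencing by coating that chromosome. Escape genes are the minority that continue to be transcribed from the otherwise silent X, usually at a lower rate than from the active one. Several of the 8 have a partner gene on the Y chromosome, and many act in dosage-sensitive steps of chromatin control, translation and protein turnover. Kdm5c removes methyl groups from lysine 4 of histone H3, and Kdm6a, also called Utx, removes them from lysine 27 as part of a COMPASS-like complex. Ddx3x is an RNA helicase of translation, and Eif2s3x is the gamma subunit of the initiation factor eIF2, which brings the initiator tRNA to the ribosome. Usp9x takes ubiquitin off its substrates. Syap1 encodes a synapse-associated protein with a BSD domain, Pbdc1 a small conserved protein of the polysaccharide biosynthesis domain family, and 1810030O07Rik the mouse counterpart of human CXorf38, whose function is little known.

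The genes lie at separate places on the X chromosome (GRCm38), with 1 group of 3. That group holds 1810030O07Rik (X 12654879 to 12673668, minus strand), Usp9x (X 13071498 to 13173328, plus strand) and Ddx3x (X 13280970 to 13294052, plus strand). Kdm6a (X 18162575 to 18279936, plus) is the next towards the centre of the chromosome, followed by Eif2s3x (X 94188707 to 94212862, minus) and Pbdc1 (X 105079756 to 105117090, plus). Kdm5c (X 152233020 to 152274535, plus) and Syap1 (X 162857057 to 162888447, minus) lie towards the far end. Values per gene were counted over exons. Apart from a microRNA inside Syap1 and the processed pseudogene Gm16265, on the opposite strand at 1810030O07Rik, no annotated gene overlapped a member.

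Promoter windows of 300 bases, 250 before the RefSeq start and 50 after it (GRCm38.p6), were found for 6 of the 8 genes, and Usp9x and Syap1 had no entry. The 6 windows held 11 to 25 CpG dinucleotides, against a median of 7 in 1223 X-linked and 7 in 32851 promoters of all chromosomes. The stretch just upstream of 4 of the genes is printed below, since they span this range. Capitals mark each CpG, and each sequence reads 5′ to 3′ on the gene's own strand.

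Kdm6a, chrX:18162425-18162574, plus strand, 12 CpG: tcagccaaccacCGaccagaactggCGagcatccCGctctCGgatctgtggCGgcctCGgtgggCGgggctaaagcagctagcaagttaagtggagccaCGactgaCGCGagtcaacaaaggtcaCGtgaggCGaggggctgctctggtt

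Ddx3x, chrX:13280820-13280969, plus strand, 14 CpG: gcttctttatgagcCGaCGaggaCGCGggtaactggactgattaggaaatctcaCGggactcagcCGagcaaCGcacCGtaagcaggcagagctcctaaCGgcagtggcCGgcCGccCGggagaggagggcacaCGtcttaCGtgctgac

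Pbdc1, chrX:105079606-105079755, plus strand, 13 CpG: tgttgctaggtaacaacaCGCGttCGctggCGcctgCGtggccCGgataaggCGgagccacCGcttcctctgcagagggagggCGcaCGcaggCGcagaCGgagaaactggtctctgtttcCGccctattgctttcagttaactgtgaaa

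1810030O07Rik, chrX:12673669-12673818, minus strand, 3 CpG: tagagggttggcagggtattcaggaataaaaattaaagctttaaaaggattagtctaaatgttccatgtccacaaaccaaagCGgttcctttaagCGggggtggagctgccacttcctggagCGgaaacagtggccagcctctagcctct

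Of these 4 stretches that of 1810030O07Rik, the gene with the highest fold change below, was the poorest in CpG. Its whole window held 11 CpG, more than 63.9% of X-linked windows, while that of Ddx3x held 25, more than 91.6% of them. The 6 windows were also searched on both strands for GCCATNTT, the core bound by YY1, a zinc-finger protein that has been linked to escape genes and to Xist. It was present in Kdm5c and Eif2s3x, 2 of 6 members, against 7.28% of X-linked and 6.05% of all windows. Both matches lie just after the RefSeq start, and capitals mark the match, which reads as the reverse complement of the searched letters on the gene's strand.

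Kdm5c, chrX:152233245-152233270, plus strand: tgacaaaccAAGATGGCggtggcagc

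Eif2s3x, chrX:94212620-94212645, minus strand: tctccgagcAAGATGGCtgggggtga

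These are matches of letters, and binding was not measured.

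The unit of every level is signal, which is the authors' scaled count of a gene in a library after normalization within that tissue's table. Each library had 12.4 to 29.2 M reads in genes, a single read was worth a signal of 0.0343 to 0.0751, and the absence of reads allows up to 3 of them, 0.103 to 0.225. Xist checked the labels: it read 70.5 to 141.2 in control and 2.33 to 13.5 in mutant fibroblasts, 1120.6 to 1204.9 and 51.2 to 116.6 in spleen, 593.6 to 730.4 and 177.6 to 256.7 in liver, and 665.6 to 682.7 and 3.62 to 4.15 in brain. It was lower in every mutant library, but mutant liver kept 0.328 of the control mean. The tissue labels were borne out by their marker genes, including brain, where 5 neuron markers summed to 6030 to 7162 and 5 heart muscle markers to 6.94 to 12.9. This was checked because the series' design text names heart in place of brain. In these bulk samples fewer cells of a type and less RNA per cell cannot be told apart.

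1810030O07Rik and Usp9x were higher in every mutant library than in every control library of the same tissue, in all 4 tissues. Averaged over tissues, 1810030O07Rik rose 1.69-fold (log2 fold change 0.76, SE 0.08, 95% interval 0.59 to 0.93, limma adjusted p = 4.5e-04) and Usp9x rose 1.48-fold (log2 fold change 0.56, SE 0.08, 95% interval 0.38 to 0.74, limma adjusted p = 0.00744). The other 6 genes had mean log2 fold changes of 0.15 to 0.33 and did not pass limma. Called higher were thus 2 of 8, where 0.297% of all 11439 genes tested, and 10 of 380 X-linked genes (2.63%), were called higher. By edgeR 2 of 8 also passed (0.315% of all genes), and by DESeq2 5 of 8 (1.22% of all genes called higher). Unadjusted limma p was under 0.05 for 7 of 8, against 8.89% of all genes. All 8 fold changes lay above 0, against 46.6% of all genes, and their median was 0.30, against 0.08 for 359 X-linked genes outside the escape lists and -0.02 for 11050 autosomal genes.

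**Figure D1:**
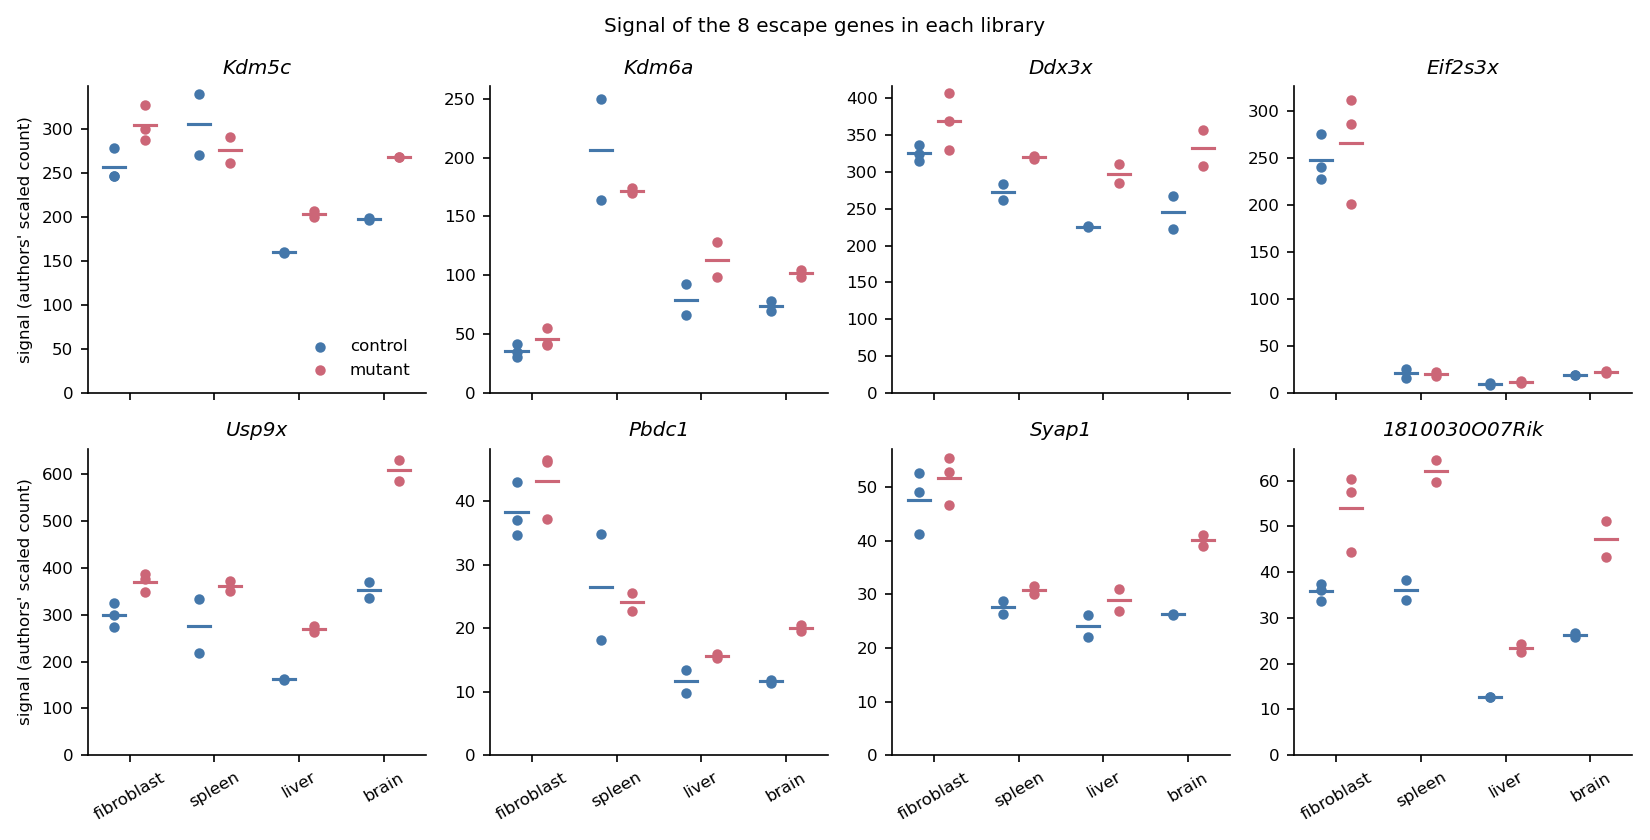
Signal (linear axis from 0) of the 8 genes in each of the 18 libraries, by tissue, with controls in blue and mutants in red. Points are libraries (3 per group in fibroblasts, 2 in organs) and bars are group means. In the panels of Usp9x and 1810030O07Rik all mutant points lie above all control points of the same tissue, and Eif2s3x reads 227.7 to 275.9 in control fibroblasts against 7.92 to 25.4 in control organs.

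1810030O07Rik read 33.8, 37.5 and 36.1 in control fibroblasts 1 to 3 and 44.4, 60.4 and 57.4 in mutant fibroblasts. Spleen controls had 34.0 and 38.3, and spleen mutants 59.6 and 64.4. Mutant and control values stood clear of each other in both, though mutant fibroblast 1 came nearest to the controls. Liver held the lowest levels, 12.8 and 12.7 for controls against 24.4 and 22.6 in mutants, and brain read 26.8 and 25.9 against 43.2 and 51.2. The ratio of means was 1.51 in fibroblasts, 1.72 in spleen, 1.83 in liver and 1.79 in brain. Within a single tissue the gene did not pass limma (log2 fold changes 0.58, 0.77, 0.85 and 0.83, adjusted p from 0.197 in brain to 0.9997 in fibroblasts). In the mean over tissues it passed under every alternative run, with a highest adjusted p of 0.00644, and with each library left out in turn its log2 fold change stayed between 0.73 and 0.79.

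Usp9x, the deubiquitinase, read 298.6, 274.9 and 324.2 in control fibroblasts 1 to 3 and 376.7, 348.7 and 386.4 in mutants. In brain, where it was most abundant, controls read 371.1 and 334.9 and mutants 585.6 and 631.5. The groups did not overlap in either tissue, and the gap was wider in brain. Liver controls read 161.2 and 162.9 and liver mutants 263.1 and 276.1, a ratio of means of 1.66. In spleen mutants read 373.2 and 351.2, while control 1 at 333.4 stood near them and control 2 at 219.4 far below. The log2 fold change was 0.31 in fibroblasts, 0.42 in spleen, 0.73 in liver and 0.79 in brain, with limma adjusted p of 0.9997, 0.784, 0.675 and 0.111. The spleen value moved to 0.72 without control 1 and to 0.12 without control 2. The call over tissues was lost when liver was left out (log2 fold change 0.51, limma adjusted p = 0.0908), while under the other alternatives the adjusted p was at most 0.0479, with organs of the same number and genotype treated as 1 animal.

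Being above all controls in each tissue was uncommon. Besides these 2 genes it was seen for 7 others, 9 of 11439 genes (0.0787%). They were the X-linked genes Klhl15, Med14, Rbm41, Tmem164 and Utp14a and the autosomal genes Cep63 and Scyl3. Within a single organ such separation is far more frequent, as the shares given by tissue below show.

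**Figure D2:**
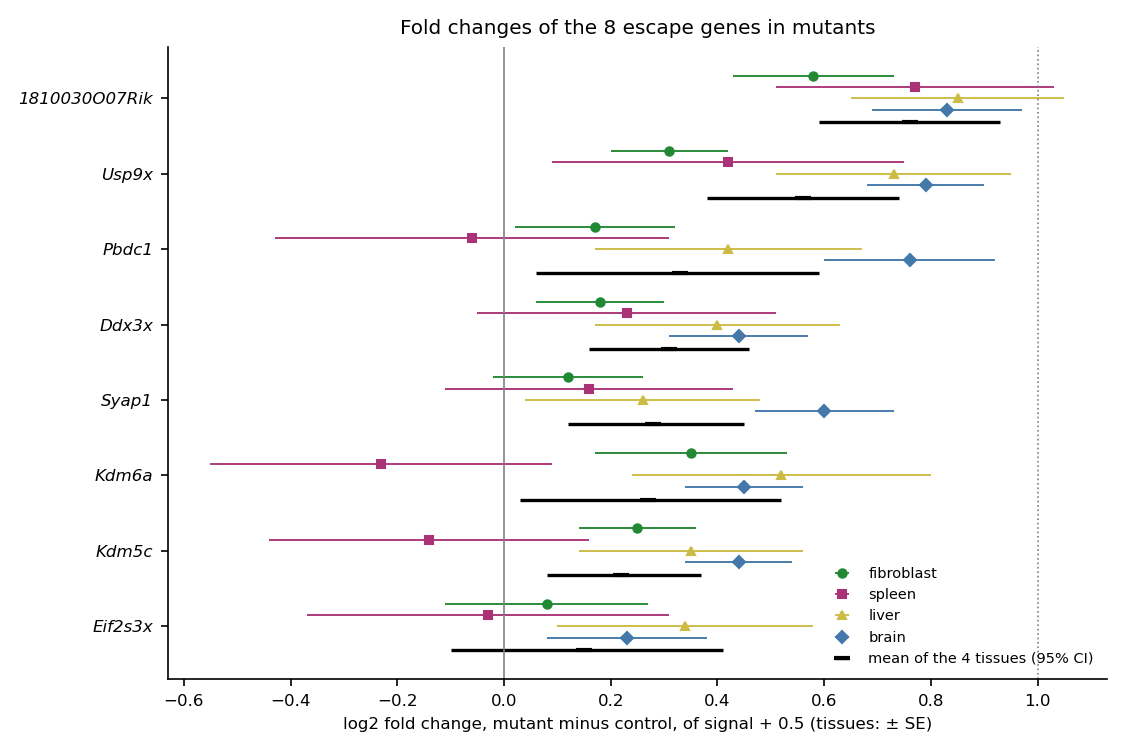
Log2 fold change (mutant minus control, of signal + 0.5) of the 8 genes in each tissue, with SE as bars, and their mean over the 4 tissues with its 95% interval in black, ordered by that mean. The dotted line marks a doubling. 1810030O07Rik and Usp9x stand apart to the right at 0.76 and 0.56, and the spleen values of Kdm5c, Kdm6a, Eif2s3x and Pbdc1 lie below 0.

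The 2 histone demethylases had higher values in mutant than in control liver and brain and overlapping groups in spleen. Kdm5c read 199.1 and 197.1 in control and 268.7 and 268.3 in mutant brain, and 160.0 and 159.4 in control and 199.9 and 206.6 in mutant liver. In fibroblasts controls read 246.5, 278.4 and 246.8 and mutants 287.1, 327.7 and 300.2. The groups were separate in these 3 tissues. In spleen the control libraries at 340.1 and 270.7 overlapped the mutants at 261.8 and 291.1. Over tissues Kdm5c had a log2 fold change of 0.22 (SE 0.07, 95% interval 0.08 to 0.37, limma adjusted p = 0.268). It passed by DESeq2 on recovered reads (adjusted p = 0.0104) and not by edgeR (adjusted p = 0.258).

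Kdm6a, the lysine 27 demethylase, read 78.3 and 69.8 in control and 98.2 and 104.7 in mutant brain, and 92.7 and 65.7 in control and 127.8 and 98.5 in mutant liver. Both tissues kept the groups apart, in liver by a narrow margin. In fibroblasts mutants at 41.1, 54.6 and 40.4 overlapped the highest control, 41.3, above the others at 34.8 and 30.3. In spleen control 1 at 250.0 was above both mutants, 174.0 and 169.8, and control 2 at 163.8 below them. Its mean log2 fold change was 0.27 (SE 0.11, 95% interval 0.03 to 0.52, limma adjusted p = 0.512).

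Ddx3x, the helicase, was higher in all 9 mutant libraries than the control mean of its tissue. It read 284.0 and 261.3 in control and 318.0 and 321.8 in mutant spleen, 226.5 and 224.8 against 310.6 and 285.0 in liver, and 267.5 and 222.7 against 357.2 and 308.7 in brain. The organ groups were separate, whereas in fibroblasts mutant 2 at 329.3 lay within the controls (315.4 to 336.2) and mutants 1 and 3, at 407.7 and 369.1, above them. Its mean log2 fold change was 0.31 (SE 0.07, 95% interval 0.16 to 0.46, limma adjusted p = 0.0875). The gene passed limma when signal was scaled to autosomal reads (0.34, adjusted p = 0.0351) and passed DESeq2 on recovered reads (adjusted p = 4.8e-04).

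Eif2s3x had the lowest mean log2 fold change of the 8, 0.15 (SE 0.12, 95% interval -0.10 to 0.41, limma adjusted p = 0.756). Fibroblast controls read 227.7, 240.4 and 275.9, and mutants 311.9, 201.3 and 286.1, so that mutants lay on both sides of the controls. Without mutant 1 the fibroblast value turned from 0.08 to -0.04. Liver controls had 9.86 and 7.92 and liver mutants 12.5 and 10.3, and in brain the values were 18.7 and 19.0 against 21.1 and 23.3, with the groups separate in both. Spleen controls at 25.4 and 15.8 spanned the mutants at 17.4 and 22.0. The genes of the other eIF2 subunits, which are autosomal, had mean log2 fold changes of -0.19 (Eif2s1, the alpha subunit) and 0.03 (Eif2s2, the beta subunit), and neither was called by limma, edgeR or DESeq2 or had an unadjusted p under 0.05.

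Pbdc1 and Syap1 showed their widest differences in brain. Pbdc1 read 11.4 and 11.9 in control and 20.6 and 19.6 in mutant brain, a ratio of means of 1.73, and 13.5 and 9.81 against 15.9 and 15.4 in liver. In spleen controls at 34.9 and 18.1 spanned the mutants at 22.8 and 25.5, and in fibroblasts controls ran from 34.7 to 43.0 and mutants from 37.2 to 46.5. The groups were thus separate in liver and brain and overlapped in the other 2 tissues. Syap1 read 26.4 and 26.2 in control and 39.1 and 41.0 in mutant brain, a ratio of means of 1.52. It read 28.7 and 26.4 against 30.1 and 31.6 in spleen and 22.0 and 26.2 against 26.9 and 31.0 in liver, both narrow gaps, and its fibroblast groups overlapped. The mean log2 fold change was 0.33 for Pbdc1 (SE 0.12, 95% interval 0.06 to 0.59, limma adjusted p = 0.452). For Syap1 it was 0.28 (SE 0.08, 95% interval 0.12 to 0.45, limma adjusted p = 0.189), and DESeq2 on recovered reads passed it (adjusted p = 0.00899).

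By tissue, the median log2 fold change of the 8 genes was 0.21 in fibroblasts, 0.06 in spleen, 0.41 in liver and 0.53 in brain. For X-linked genes outside the escape lists it was 0.04, 0.02, 0.09 and 0.13, and for all genes tested it was at or within 0.07 of 0. No member passed limma within a tissue, where 0, 0, 0 and 3 genes in all were called higher (0%, 0%, 0% and 0.0177% of those tested). Unadjusted limma p lay under 0.05 for 2, 1, 2 and 7 members, against 0.971%, 6.27%, 6.67% and 4.07% of all genes. By edgeR no member passed, and 0%, 0%, 0% and 0.0237% of all genes did. DESeq2 passed no member in fibroblasts, spleen and liver, where it called 0.00765%, 0.953% and 0.955% of all genes higher. In brain, with 0.213% of genes called higher, it passed Usp9x (adjusted p = 1.4e-07) and 1810030O07Rik (adjusted p = 0.00108). Mutants lay above all controls for 3, 4, 8 and 8 of the 8 genes, against 2.07%, 18.3%, 23.5% and 13.8% of all genes and 7.48%, 25.3%, 30.6% and 41.7% of X-linked genes tested.

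For none of the 8 was the mutant effect shown to differ among the 4 tissues. limma's moderated F test of that difference called 0.0437% of all genes and no member, and no member had an unadjusted p under 0.05. The lowest was 0.0534, for Kdm5c (limma adjusted p = 0.96). The log2 fold change of Xist itself ran from -7.27 in brain to -1.62 in liver. By the same F test Xist had an unadjusted p of 1.0e-04 and was not called either (limma adjusted p = 0.0875).

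The spleen values turned on which control library was used. In control 1, 7 of the 8 genes lay above the mean of the 2 controls. On the log2 scale the 8 averaged 0.20 there, against 0.05 for other X-linked genes. The -0.20 of control 2 is the mirror image of this, since the mean of 2 values lies midway between them. Kdm5c (-0.14), Kdm6a (-0.23), Eif2s3x (-0.03) and Pbdc1 (-0.06) were below 0 with both controls. They were 0.03, 0.07, 0.30 and 0.40 without control 1 and -0.30, -0.54, -0.37 and -0.52 without control 2. The median of the 8 was 0.30 and -0.10. Control 1 also had the highest sum of 5 erythroid markers, 17221, against 5748 to 8551 in the other spleens, and the lowest sum of 5 lymphocyte and leukocyte markers, 290, against 338 to 736. Other marker sums moved with genotype in spleen: 5 fibroblast markers summed to 1737 and 2058 in controls and 4694 and 2836 in mutants, and 5 neuron markers to 10.1 and 11.2 against 29.6 and 23.9. In liver erythroid markers summed to 7631 and 10122 in control and mutant 1 and to 2860 and 4600 in control and mutant 2. There 5 of the 8 genes were higher in number 1 of both genotypes, 2 (Usp9x and Syap1) were lower in both, and Kdm5c was mixed. Such agreement was not particular to the 8. Over all genes tested in every tissue, the liver deviations of control 1 and mutant 1 correlated at 0.60. The part of cell composition in the spleen result was not tested. When signal was scaled to autosomal reads, the spleen values of Eif2s3x and Pbdc1 turned to 0.06 and 0.03.

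**Figure D3:**
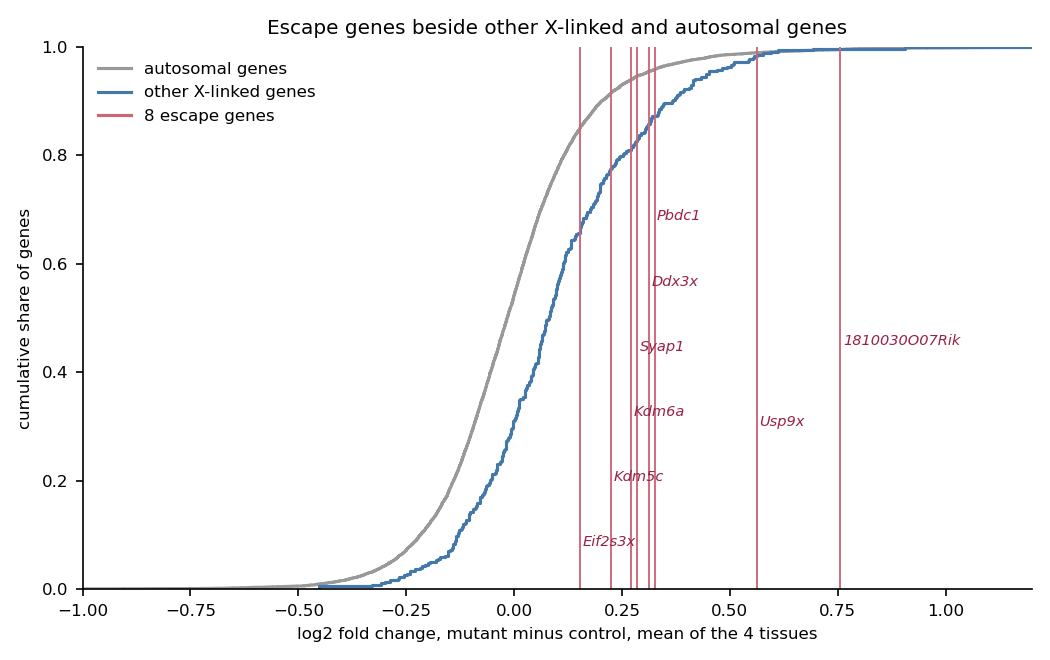
Cumulative share of genes (vertical axis) by log2 fold change averaged over the 4 tissues (horizontal axis), for autosomal genes in grey and for X-linked genes outside the escape lists in blue. Red lines mark the 8 escape genes, which run from 0.15 for Eif2s3x to 0.76 for 1810030O07Rik and all lie right of both medians, -0.02 and 0.08.

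Among the 380 X-linked genes of the mean over tissues, 1810030O07Rik ranked 3 by fold change and Usp9x 13. Pbdc1 ranked 58, Ddx3x 64, Syap1 77, Kdm6a 83, Kdm5c 100 and Eif2s3x 140. Most of the 8 therefore stood in the upper part of the X-linked genes without standing outside their range. In the mean over tissues no interval of the 8 reached a doubling: its upper end was highest for 1810030O07Rik, 1.90-fold, and lowest for Kdm5c, 1.29-fold. Within single tissues the intervals were wider, and a doubling was not excluded for every gene. For 1810030O07Rik the upper end was a log2 fold change of 1.40 in spleen, 1.37 in liver, 1.13 in brain and 0.93 in fibroblasts. Usp9x, Pbdc1 and Kdm6a also had an interval past a doubling in at least 1 organ, and Kdm5c, Ddx3x, Eif2s3x and Syap1 had none.

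Other genes reported to escape in mouse had mean fold changes of the same sign. Of 14 listed, 12 were tested in all tissues and 12 lay above 0, with a median of 0.37. Some genes first planned for this list are not among the 14. Utp14a, a factor of ribosome assembly, rose (log2 fold change 0.72, SE 0.10, limma adjusted p = 0.00425), as did Med14, a Mediator subunit (0.58, SE 0.08, limma adjusted p = 0.00506). Without liver Utp14a did not pass (log2 fold change 0.59, adjusted p = 0.0908). The noncoding RNA Firre had 0.57 (limma adjusted p = 0.143) and 4933407K13Rik 0.60 (limma adjusted p = 0.0898). Above 0 lay 69.1% of X-linked genes outside the escape lists. Of 11 genes known to be silenced on the inactive X, all tested, 9 lay above 0 with a median of 0.06. Unadjusted limma p was under 0.05 for 3 of these 11 and for 9 of the 12 escape genes tested, against 8.89% of all genes. DESeq2 called 2 of the 11 and 4 of the 12, with 1.22% of all genes called higher. Atp7a, a copper transporter, passed at 0.42 (SE 0.08, limma adjusted p = 0.0465). That call was lost by edgeR (adjusted p = 0.0714), with the replicate number as a block (0.142), with organs of the same number and genotype treated as 1 animal (0.23), with array weights (0.0837), scaled to autosomal reads (0.0793) and without fibroblasts (0.0547), liver (0.19) or spleen (log2 fold change 0.30, adjusted p = 0.438), and also without any single library other than spleen control 2 (highest adjusted p = 0.166). Hprt, a purine salvage enzyme, had -0.13 and Pgk1, a glycolytic enzyme, 0.06. Across tissues the medians of the escape list were 0.29, 0.25, 0.38 and 0.57 in fibroblasts, spleen, liver and brain, and those of the silenced list 0.00, -0.03, 0.08 and 0.14.

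Relatives and partners on other chromosomes were measured beside the 8. Kdm5a and Kdm5b, autosomal relatives of Kdm5c, had mean log2 fold changes of 0.22 and 0.15, and Kdm6b, a relative of Kdm6a, 0.16. None of the 3 was called by limma, edgeR or DESeq2, and 1 of them, Kdm5a, had an unadjusted p under 0.05 (0.0111). The value of Kdm5a was thus the same as that of Kdm5c at 2 decimals. D1Pas1, an autosomal relative of Ddx3x, was below the filter. Of 9 genes for COMPASS-like partners of Kdm6a, 8 were tested. Of these 3 lay above 0, with a median of -0.03 and a range from -0.23 (Dpy30) to 0.16 (Kmt2d), and none was called by limma, edgeR or DESeq2 or had an unadjusted p under 0.05.

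The genes next to the 8 were taken as the nearest tested gene on each side, 14 in all, of which Med14, Zfx and 5530601H04Rik are also in the lists above. Of these 12 lay above 0, with a median of 0.37, and 2 were called, where 69.1% of the X-linked genes outside the escape lists lay above 0 and 2.63% of X-linked genes were called. Klhl15, a ubiquitin ligase adaptor whose lower coordinate lies 45.9 kb from that of Eif2s3x, rose (log2 fold change 0.69, SE 0.11, limma adjusted p = 0.00886) with 0.72, 0.72, 0.54 and 0.79 in fibroblasts, spleen, liver and brain. Its adjusted p was 0.0548 with organs of the same number and genotype treated as 1 animal. Eif2s3x itself had 0.08, -0.03, 0.34 and 0.23. Med14 lies between 1810030O07Rik and Usp9x, 20.5 kb from the first by lower coordinates, and had 0.44, 0.50, 0.68 and 0.71. Fundc1, a mitochondrial membrane protein and the neighbour before Kdm6a, had 0.44 (SE 0.10, limma adjusted p = 0.0805), and Magee1, after Pbdc1, 0.37 (SE 0.09, limma adjusted p = 0.104). Rpl3-ps1, a ribosomal pseudogene between Usp9x and Ddx3x, had -0.14 and Gm14636, after Kdm6a, -0.17. In wider windows the values differed by place. The 5 other tested genes within 1 Mb of 1810030O07Rik, Usp9x or Ddx3x had a median of 0.31, and the 39 within 1 Mb of the other 5 members 0.08. The 327 X-linked genes further away had 0.09. These medians are descriptions, and their difference was not tested.

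**Figure D4:**
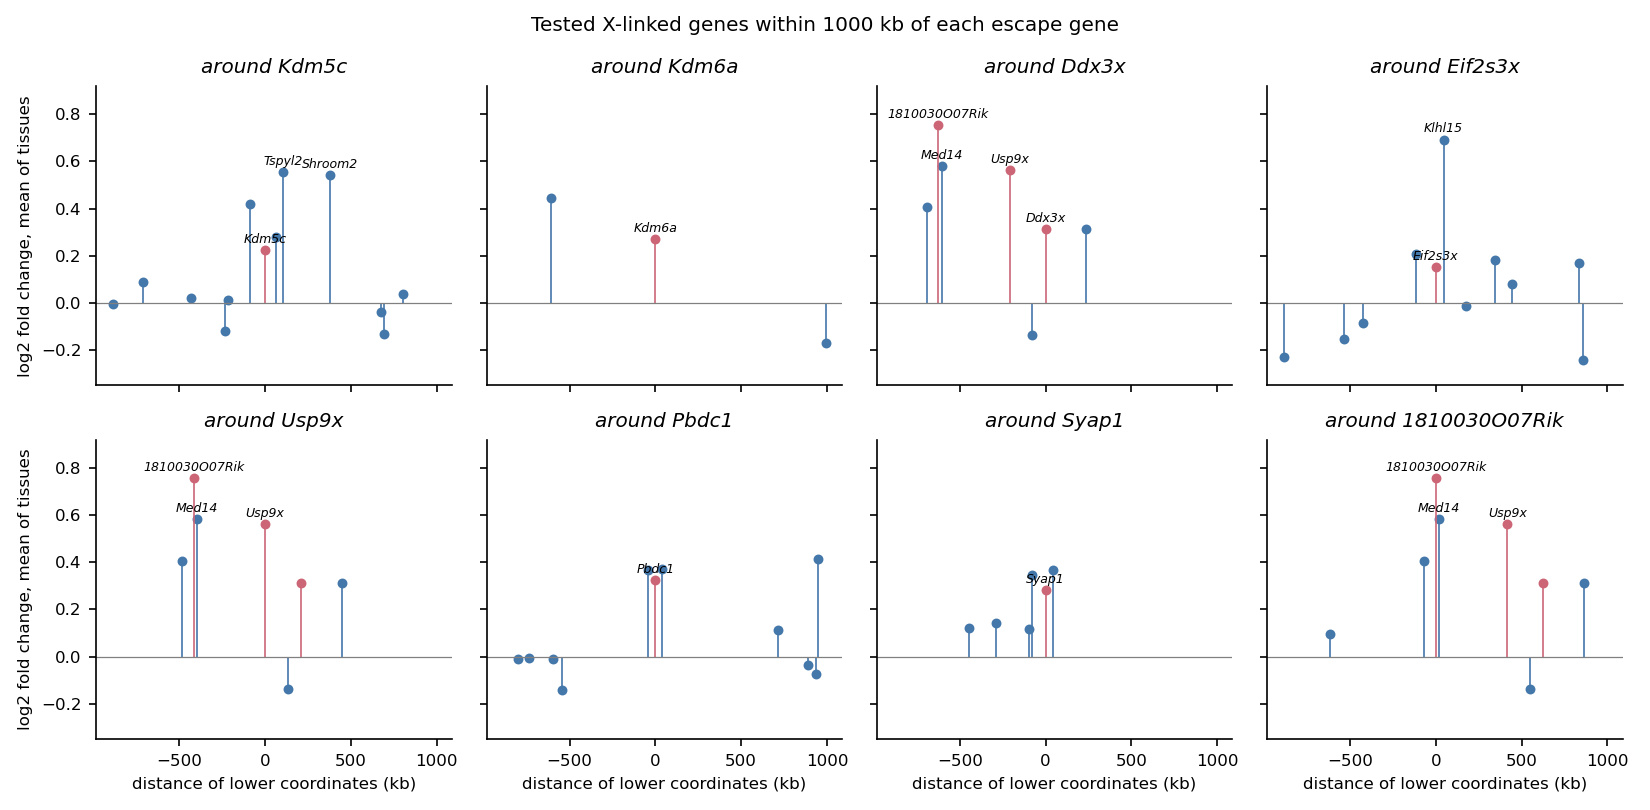
Log2 fold change averaged over the 4 tissues for tested X-linked genes within 1 Mb of each of the 8 genes, by distance between the lower coordinates of the genes in kb. Escape genes of the set are in red and other genes in blue, and each central gene and genes at 0.5 or above are named. Klhl15 (0.69) stands beside Eif2s3x (0.15), and Med14 (0.58) between 1810030O07Rik and Usp9x.

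Across the 18 libraries, each value taken as its difference from the control mean of its tissue, the pairs among the 8 genes correlated at r = 0.28 (Eif2s3x and 1810030O07Rik) to 0.90 (Ddx3x and Usp9x). Usp9x followed the mean of the other 7 most closely (r = 0.92) and Eif2s3x least (r = 0.59). These values include the difference between genotypes, and libraries share depth and composition, so they are a description. The genes most like the mean of the 8 were Gm17538 (r = 0.88), Utp14a (0.85), Rlim, Cdk16 (both 0.83), Med14, Acp1, Txlng, Fancc (all 0.82), Rbm41 (0.81) and Otud5 (0.80). Of these 10, 7 are X-linked, among them Txlng, the neighbour before Syap1, where 380 of all 11439 genes tested are X-linked. The others, Gm17538, Acp1 and Fancc, are autosomal, with mean log2 fold changes of 0.64, 0.86 and 0.29. Of these Acp1 passed limma (adjusted p = 0.042). Rlim encodes a ubiquitin ligase that acts upstream of Xist, and it had a mean log2 fold change of 0.19 (limma adjusted p = 0.266).

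Levels in control tissues were compared per kb of exon, as a description, because each tissue's table was normalized on its own. In the organs Ddx3x was the most abundant of the 8, at 51.7 ± 3.04 per kb in spleen, 42.8 ± 0.231 in liver and 46.5 ± 6.00 in brain (SD, n = 2 each). Kdm5c followed at 43.0 ± 6.91, 22.5 ± 0.0621 and 27.9 ± 0.205. Pbdc1 had the lowest mean in each organ, at 4.35 ± 1.94, 1.92 ± 0.433 and 1.91 ± 0.0646, but its range overlapped that of Eif2s3x in spleen and liver. In signal not divided by exon length, Eif2s3x had a lower mean than Pbdc1 in spleen and liver. Liver was the lowest tissue for 6 of the 8 genes, all but Kdm6a and Pbdc1.

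**Figure D5:**
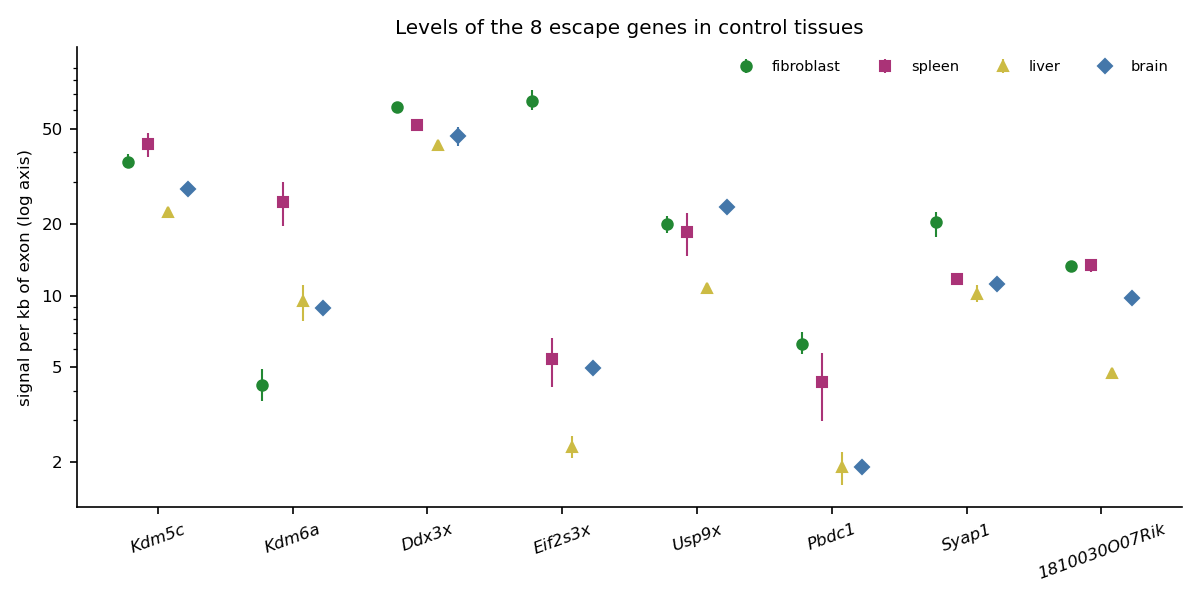
Signal per kb of exon (log axis) of the 8 genes in control libraries of each tissue. Points are means and bars run from the lowest to the highest library (n = 3 in fibroblasts, 2 in organs). Kdm6a is highest in spleen and lowest in fibroblasts, and Eif2s3x is at 65.1 in fibroblasts against 2.33 to 5.41 in the organs.

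The order of tissues differed from gene to gene. Kdm6a had a mean signal of 207 ± 61.0 in spleen, 79.2 ± 19.1 in liver, 74.1 ± 5.96 in brain and 35.5 ± 5.55 in fibroblasts, of which liver and brain overlapped. Usp9x was highest in brain (353 ± 25.6), then fibroblasts (299 ± 24.7) and spleen (276 ± 80.6), which overlapped, and lowest in liver (162 ± 1.25). Kdm5c ran from spleen (305 ± 49.1) through fibroblasts (257 ± 18.3), whose range overlapped it, and brain (198 ± 1.46) to liver (160 ± 0.441). 1810030O07Rik was alike in spleen (36.1 ± 3.04) and fibroblasts (35.8 ± 1.91), lower in brain (26.3 ± 0.645) and lowest in liver (12.8 ± 0.0734). Ddx3x was the flattest, highest in fibroblasts at 1.44 times liver, and the ranges of the 3 organs overlapped their neighbours. Syap1 was 1.73 times as high in fibroblasts as in spleen, and its organs overlapped in order. Pbdc1 was highest in fibroblasts (38.3 ± 4.26), overlapping spleen (26.5 ± 11.8), with liver (11.7 ± 2.64) and brain (11.6 ± 0.394) overlapping below (SD, n = 3 in fibroblasts and 2 in organs throughout).

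Eif2s3x stood apart, at 248 ± 25.0 (SD, n = 3) in control fibroblasts and 20.6 ± 6.81, 18.9 ± 0.182 and 8.89 ± 1.37 (SD, n = 2 each) in spleen, brain and liver. Fibroblasts were 12.0 times as high as spleen, and spleen and brain overlapped. Among the silenced genes listed above, Pgk1 read 484.5 to 687.8 in control fibroblasts and 4.24 to 10.5 in control organs, and Rps4x, a ribosomal protein gene, 494.9 to 552.8 and 22.5 to 72.7. Gla read 18.9 to 32.8 and 4.83 to 8.76, and Pdha1 187.2 to 216.7 and 64.3 to 139.0, smaller gaps without overlap. In others of that list the ranges overlapped: Hprt read 34.2 to 51.9 and 20.9 to 68.5, Uba1, the ubiquitin-activating enzyme, 507.4 to 550.8 and 209.0 to 686.6, and G6pdx, the first enzyme of the pentose phosphate pathway, 62.2 to 102.3 and 29.3 to 140.6. Of the Y-linked counterparts of the 8, Kdm5d read 0.638 to 1.40 and Uty 0.356 to 0.789 in fibroblasts of both genotypes. In organs Uty had no read and Kdm5d had reads in 1 library, control liver 2, at 0.0402. Ddx3y had no read in any library, and Eif2s3y and Usp9y were at most 0.103 in fibroblasts and without a read in organs. How reads that match more than 1 place in the genome were counted in each table is not stated in the sources used here, and its part in the fibroblast level of Eif2s3x was not tested. Comparisons of genotypes stay within a table and so do not set these levels against each other. Whether the counting affected the fold changes within a table was not tested.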

How the data were processed

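Total RNA depleted of ribosomal RNA was sequenced with 50-nt reads, per the labels' protocols and the series' design text. The submitters' processing notes name HTSeq 0.6.1 and edgeR, the latter without a version. For the aligner and the use of strand in counting, the sources used here give nothing. The deposited values are signal, scaled counts in 1 table per tissue, each normalized on its own. Per the labels, controls are heterozygous, although the deposited control columns are headed WT. In every library 100% of nonzero values were whole multiples of 1 read's signal (tolerance 0.05), so reads were recovered. GENCODE mouse release 21 matched 45229 identifiers and not 849, with 0.179% of the reads of a library or less.

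With limma 3.58.1 (R 4.3.3; trend, two-sided, Benjamini-Hochberg at 0.05), genes averaging 1 or more in a tissue's table were fitted within that tissue as log2(signal + 0.5). A fit over all 18 libraries, with an intercept and a mutant effect for each tissue, gave the equal-weight mean of the 4 differences (10 residual degrees of freedom) and the F test between tissues, for genes passing in every table. Fold changes are on this scale, which understates those of low genes. edgeR 4.0.16 (quasi-likelihood) and DESeq2 1.42.0 were run on recovered reads as alternatives, beside other settings named in the closing section, and scripts were tested on simulated data.

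The members and lists were chosen with earlier results of these data known. Named genes are the 8 members, Xist, genes of the lists (with mean fold changes for up to 4 per list), the nearest tested neighbours and the 10 genes most correlated with the members' mean. Other genes (those separated in 4 tissues, and those of the silenced list given for their levels) were named after their values were seen. Per the series' design text replicates are biological; replicate libraries differed by more than counting error (chi-square per degree of freedom 8.83 to 165). Limits for a count of 0 (95%) cover counting error only.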

Additional observations from a re-analysis of the deposited data

How the results depend on the processing

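For single genes, 404 of 424 values under alternatives other than leaving out a library kept their direction and side of the threshold, or their level within the spread. The number of genes called over the whole table moved most. DESeq2 on recovered reads called 3 genes in fibroblasts, 182 in spleen, 211 in liver, 41 in brain and 172 over tissues, where limma called 0, 0, 0, 4 and 35. With no filter on low values the calls were 22 in spleen, 11 in liver, 13 in brain, 105 over tissues and 136 between tissues (5 with the filter), and Usp9x passed in brain (0.79, adjusted p = 0.0414). Treating organs of 1 number and genotype as 1 animal (consensus correlation 0.25) gave 16 calls over tissues and 16 between tissues, and Usp9x had an adjusted p of 0.0479. Leaving out fibroblasts, spleen, liver or brain, chosen after seeing the data, gave 56, 15, 10 and 63 calls. The members' median was 0.20 without brain, and Usp9x was lost without liver (0.51). With signal scaled to autosomal reads, the spleen values of Eif2s3x and Pbdc1 turned to 0.06 and 0.03. The cause of these changes was not tested.

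Leaving out 1 library at a time, the calls ranged from 0 to 177 in spleen, 6 to 109 in brain, 20 to 99 over tissues and 4 to 30 between tissues, and stayed at 0 in fibroblasts and liver. The members' median ranged from 0.20 to 0.28 in fibroblasts, -0.10 to 0.30 in spleen, 0.36 to 0.57 in liver, 0.51 to 0.59 in brain and 0.24 to 0.34 over tissues. Kdm5c (-0.30 to 0.03), Kdm6a (-0.54 to 0.07), Eif2s3x (-0.37 to 0.30) and Pbdc1 (-0.52 to 0.40) changed sign in spleen, as did Eif2s3x in fibroblasts (-0.04 to 0.27). Usp9x in brain had adjusted p from 0.0152 to 0.0905.

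With the replicate number as a block (replicate block), 356 genes were called in spleen, 60 in liver, 4 in brain, 0 in fibroblasts and 28 over tissues, and no member's call changed. Libraries of 1 number were not shown to be pairs: their deviations correlated at -0.13, 0.45 and 0.08 in fibroblasts, where 2 of 6 libraries correlated best with their own number, and at 0.07, 0.60 and 0.12 in spleen, liver and brain, with only 2 pairs each. With 2 libraries per organ group, no member passed limma's adjustment over all genes within an organ at the settings of the report, although in brain the unadjusted p was under 0.05 for 7 of 8.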
